A study of Mus musculus with 14 samples.

Results

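The most accessible sites of control Treg cells were examined by bulk ATAC-seq, an assay that tags open DNA with a transposase, so that more reads mean more accessible DNA. The deposited table held read counts in 240778 windows, all of the same width and placed on peak summits. Counts of each R26WT library were divided by the library total and multiplied by 1000000 (CPM) and averaged over the 7 R26WT libraries. The 2000 windows with the highest mean were kept, which is 0.831% of all windows. Overlapping windows share reads, and the 2000 windows formed 1718 separate regions, of which 216 held more than 1 window. Since the windows were chosen by their level in R26WT cells, that level is a description and not a result.

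All libraries were made from Treg cells of spleen and lymph nodes. Every mouse carried Foxp3AID and was given 5-ph-IAA, so controls had the same allele and the same ligand. From the Foxp3AID locus come a Foxp3 protein with an auxin-inducible degron tag, a ZsGreen reporter and Cre recombinase. R26TIR1(F74G) mice also carried the plant receptor TIR1(F74G) behind a loxP-flanked stop in the Rosa26 locus, so that 5-ph-IAA triggers loss of the fusion protein in cells that have expressed Cre from the Foxp3 locus. R26WT mice lacked the receptor. Day 3 of treatment had 4 mice of each genotype and day 7 had 3 of each, with 1 library per mouse. The labels do not separate resting from activated Treg cells.

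The most open sites of mammalian cells usually lie in the nucleosome-depleted regions just upstream of the start sites of broadly expressed genes. Many such promoters lie in CpG islands and carry short elements bound by widely expressed factors, such as the GC box (Sp and KLF proteins), the CCAAT box (NF-Y) and the ETS site. Sites that distinguish 1 cell type from another more often lie in introns or between genes.

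The letters of the highest windows are shown first because the elements in them recur below. RefSeq promoters on GRCm38.p6, the assembly named mm10 in the submitters' processing notes, gave the sequence of the 7 highest regions whose window centre lay at least 75 bases inside a listed promoter. These were the windows of Cggbp1 (chr16:64851797-64851997, + strand), Ube2d3 (chr3:135438253-135438453, + strand), Klf13 (chr7:63938986-63939165, - strand), Etnk1 (chr6:143166998-143167198, + strand), Fam76b (chr9:13827490-13827690, + strand), Sesn3 (chr9:14276057-14276257, + strand) and Eif2ak3 (chr6:70844265-70844462, + strand). Positions are counted from 1 and cover the part of each window that lies in the promoter table. Letters run 5′ to 3′ on the strand of the gene, and capitals mark exact matches on either strand to 1 of the 12 elements that were searched.
Cggbp1: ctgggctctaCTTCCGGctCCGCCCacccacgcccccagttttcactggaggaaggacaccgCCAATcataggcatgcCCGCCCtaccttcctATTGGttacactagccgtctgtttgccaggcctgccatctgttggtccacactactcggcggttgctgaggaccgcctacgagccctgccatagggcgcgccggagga
Ube2d3: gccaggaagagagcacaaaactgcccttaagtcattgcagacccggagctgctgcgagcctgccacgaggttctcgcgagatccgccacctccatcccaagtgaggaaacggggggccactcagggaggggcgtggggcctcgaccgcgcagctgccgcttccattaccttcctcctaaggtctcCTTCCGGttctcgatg
Klf13: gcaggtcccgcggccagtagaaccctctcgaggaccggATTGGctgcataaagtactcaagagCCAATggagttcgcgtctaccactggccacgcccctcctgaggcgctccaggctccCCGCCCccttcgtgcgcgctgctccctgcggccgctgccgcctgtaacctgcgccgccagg
Etnk1: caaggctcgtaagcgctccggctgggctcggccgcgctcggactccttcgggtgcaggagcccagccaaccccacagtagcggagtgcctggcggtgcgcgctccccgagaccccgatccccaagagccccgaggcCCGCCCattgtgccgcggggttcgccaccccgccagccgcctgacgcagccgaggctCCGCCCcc
Fam76b: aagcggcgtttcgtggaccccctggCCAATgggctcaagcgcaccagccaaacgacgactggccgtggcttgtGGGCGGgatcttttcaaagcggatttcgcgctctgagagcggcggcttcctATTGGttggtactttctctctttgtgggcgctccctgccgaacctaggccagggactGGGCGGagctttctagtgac
Sesn3: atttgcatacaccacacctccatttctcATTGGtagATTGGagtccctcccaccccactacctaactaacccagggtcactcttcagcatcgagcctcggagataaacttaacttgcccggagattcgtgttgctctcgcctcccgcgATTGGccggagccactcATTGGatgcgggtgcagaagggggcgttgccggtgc
Eif2ak3: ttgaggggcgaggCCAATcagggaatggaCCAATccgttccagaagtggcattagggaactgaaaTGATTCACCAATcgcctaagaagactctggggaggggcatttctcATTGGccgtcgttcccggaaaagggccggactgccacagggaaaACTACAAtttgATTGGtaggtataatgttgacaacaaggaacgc
Cggbp1 and Zfp654 start on opposite strands around the first of these windows, and its letters held 2 GC boxes, 2 CCAAT boxes and 1 ETS site. The Klf13 window held 1 GC box and 2 CCAAT boxes, and the Fam76b window 2 of each. Sesn3, which encodes a stress-induced regulator of metabolism, carried 4 CCAAT boxes and no GC box. Eif2ak3, which encodes the stress kinase PERK, carried 5 CCAAT boxes, 1 AP-1 site and 1 ACTACAA. The Ube2d3 window held 1 ETS site only, and the Etnk1 window 2 GC boxes only.

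The level of the 2000 windows ranged from 41.6 to 96.7 mean R26WT CPM, with a median of 50.5, whereas the median over all windows was 1.78. The highest window belonged to Cnot3, a subunit of the CCR4-NOT complex that shortens mRNA tails (chr7:3644936-3645137, centred 211 bp upstream of the start site). It had 97.0, 91.7, 98.5 and 102.7 CPM in the R26WT mice on day 3 and 100.8, 96.5 and 90.1 CPM in those on day 7. In R26TIR1(F74G) mice it had 92.9, 96.8, 92.5 and 88.4 CPM on day 3 and 98.4, 98.0 and 91.6 CPM on day 7. The groups overlapped on both days.

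The next regions in order were at Lnpep, an aminopeptidase (96.3 mean R26WT CPM), Slc39a10, a zinc importer (94.98 CPM), Hbp1, a transcriptional repressor (90.9 CPM), and the shared start of Zfp654 and Cggbp1 (89.8 CPM). Ube2d3, a ubiquitin-conjugating enzyme (89.1 CPM), Ppm1b, a protein phosphatase (88.9 CPM), Klf13, a zinc-finger transcription factor (88.6 CPM), Pdcd10 (88.5 CPM) and Pja2, a ubiquitin ligase (87.1 CPM), completed the highest 10 regions. All 10 were centred within 252 bp of a protein-coding start site. Their means in R26TIR1(F74G) libraries ran from 82.1 to 99.5 CPM. Slc39a10, the highest in R26TIR1(F74G) mice, had 92.5, 97.1, 97.1 and 98.8 CPM in R26WT mice and 102.2, 101.3, 100.9 and 104.8 CPM in R26TIR1(F74G) mice on day 3. These groups did not overlap, and the log2 difference was 0.035 with a standard error of 0.10 after TMM scaling for library composition (edgeR quasi-likelihood test, adjusted p = 0.967). Each pair of neighbours in this order differed by less than the larger of their SDs over the 7 R26WT libraries, which was 4.55 CPM for Cnot3 and 5.07 CPM for Lnpep.

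At the lower bound the order was equally close. The 5 windows just inside were those of Ube2d3 (41.64 CPM, a second window of that promoter), Dock8 (41.63 CPM, 37636 bp from the start site), Tepsin (41.62 CPM), Gm13287 (41.62 CPM) and Usp53 (41.62 CPM). The 5 just outside were those of Leng8 (41.62 CPM), Smg1 (41.61 CPM), Myl12a (41.60 CPM), Ing1 (41.59 CPM) and Rnaset2a (41.58 CPM). Levels ran on across the bound without a gap, as the plot of level against rank shows.

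**Figure D1:**
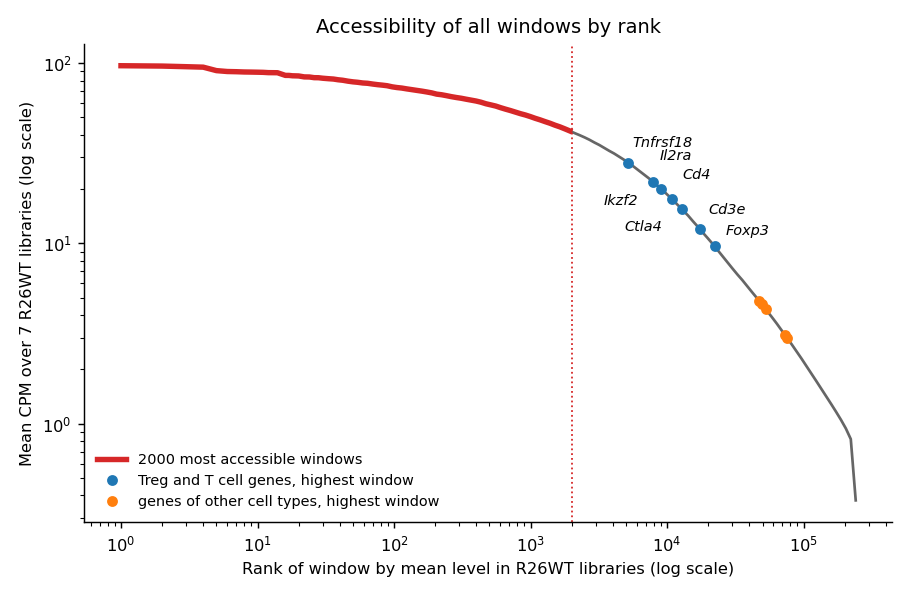
Mean CPM over the 7 R26WT libraries (vertical axis, log scale) of all 240778 windows against their rank (horizontal axis, log scale), with the 2000 highest in red and a dotted line at rank 2000. Points mark the highest window assigned to chosen Treg and T cell genes (blue), which lie between 9.64 CPM (Foxp3) and 28.0 CPM (Tnfrsf18). Chosen genes of other cell types (orange) lie between 3.01 CPM (Cd79a) and 4.80 CPM (Alb). No point is among the 2000. Genes of other cell types that are not plotted reached higher, such as Cebpb (12.9 CPM) and Klrb1c (43.6 CPM, among the 2000).

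Most of the windows lay at promoters. Of the 2000, 1844 (92.2%) were centred within 1 kb of a protein-coding start site, against 23.0% of all windows. A further 77 (3.85%) lay elsewhere inside a protein-coding gene and 79 (3.95%) between genes, against 41.1% and 35.9% of all windows. Within promoters the windows were also placed differently. Their centres lay a median of 51 bp upstream of the start site, and 72.6% of the centres were upstream, whereas the 53502 other promoter windows lay a median of 102 bp downstream and 41.3% were upstream. The share within 100 bp of a start site was 60.6% for the most accessible and 20.3% for the other promoter windows. Start sites on both strands lay within 1 kb of 356 of the 1844 windows (19.3%), against 8.38% of the other promoter windows. These positions were not used by the choice of windows, but a window near the middle of a peak has more reads than one at its edge, and no test was made.

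**Figure D2:**
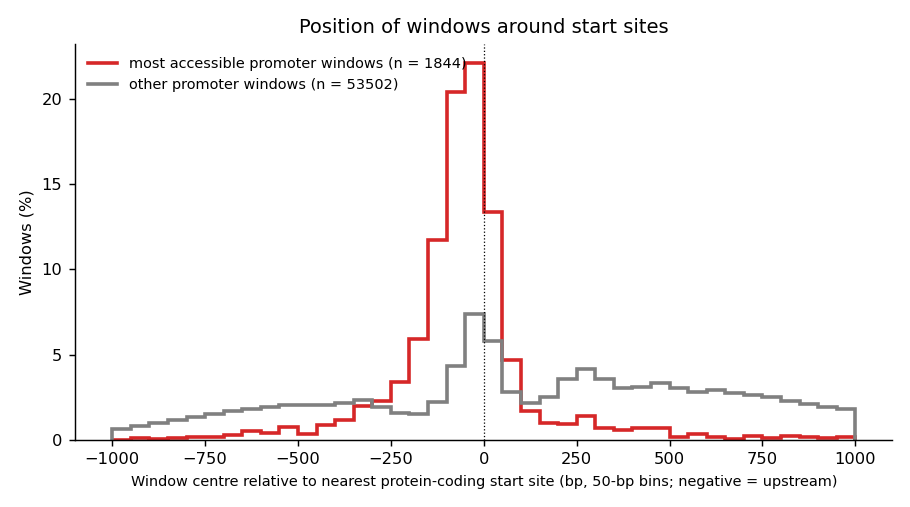
Share of windows (vertical axis, percent) by the position of their centre relative to the nearest protein-coding start site (horizontal axis, bp in 50-bp bins, negative is upstream) for the 1844 most accessible promoter windows (red) and the 53502 other promoter windows (grey). The red curve peaks just upstream of the start site, and the grey curve is wide with more windows downstream.

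The windows were spread over all autosomes, with chromosome 7 holding the most (178 windows, 1.27% of its windows). Chromosome X held 10 of the 2000 (0.50%), against 2.69% of all windows. The lower number was also seen within promoters, where 6 of the 1844 windows (0.325%) and 3.68% of the other promoter windows lay on chromosome X. Over all promoter windows the median R26WT level was 3.02 CPM on chromosome X and 4.34 CPM on autosomes. The highest window on chromosome X was that of Kdm6a, a histone H3K27 demethylase (67.0 mean R26WT and 70.6 mean R26TIR1(F74G) CPM). Yipf6, Morf4l2 and Ap1s2 were the other coding genes of chromosome X with a start site within 1 kb.

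The promoters of the most accessible windows differed in sequence from the other promoters. In the RefSeq table, which runs from 250 bases before to 50 after each start, 1277 promoters contained the centre of 1 of the 2000 windows, 8973 contained only the centre of another window and 10795 contained none. The median number of CG dinucleotides per promoter was 26, 21 and 4 in these 3 sets, and the median GC content 64.3%, 61.7% and 50.3%. The CCAAT box, CCAAT or its complement, was present in 60.8% of the most accessible promoters, 35.6% of the other promoters with a window, 38.2% of those without and 38.5% of all promoters in the table. At least 2 CCAAT boxes were present in 35.4%, 12.4% and 10.2% of the 3 sets. The GC box, GGGCGG, was present in 81.9% of the most accessible, 67.0% of the other and 25.6% of the windowless promoters, and in 46.7% of all.

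For most other elements the shares of the most accessible and the other promoters with a window lay closer together in percentage points. These elements were also rarer, so in proportion the sets need not lie closer. The ETS site, CCGGAAG, was present in 22.4% of the most accessible, 19.5% of the other and 3.92% of the windowless promoters (11.7% of all). The NRF1 site, GCATGCGC, was present in 6.11%, 5.66% and 1.48% (3.54% of all), the YY1 site, AAGATGGCG, in 4.15%, 3.20% and 0.435% (1.84% of all), and the cAMP response element, TGACGTCA, in 4.54%, 3.40% and 1.04% (2.26% of all). The E-box, CACGTG, was present in 11.1%, 10.7% and 5.22% (7.91% of all), and ACTACAA, part of the site of THAP11 and ZNF143, in 6.89%, 4.22% and 2.76% (3.64% of all). The TATA box, TATAAA, went the other way, with 4.31% of the most accessible, 5.90% of the other and 19.3% of the windowless promoters (12.7% of all). AACCACA, bound by RUNX factors, was present in 2.98%, 3.80% and 5.72% (4.74% of all), TGANTCA, bound by AP-1, in 3.37%, 4.37% and 9.69% (7.04% of all), and GTAAACA, bound by forkhead factors, in 1.96%, 2.32% and 3.75% (3.03% of all). All searches covered both strands, and no element sequence contains another. A match is a description of letters, not of binding.

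Across the 10250 promoters with a window, the CCAAT box rose in frequency with the level. When these promoters were split into 10 bins of 1025 by their highest window, 30.1% of the lowest bin (median 1.45 CPM), 32.7% of the fifth, 44.8% of the eighth and 61.7% of the highest bin (median 52.5 CPM) contained it. The GC box went from 58.5% in the lowest to 82.8% in the highest bin, whereas the ETS site increased from 4.49% to 23.2% by the fifth bin, reached 27.3% in the eighth and was at 22.4% in the highest. The CCAAT boxes were also positioned. In the most accessible promoters the share with a CCAAT box was greatest between 75 and 51 bp upstream of the start (18.6%) and was 7.75% in the bin farthest upstream and 2.58% in the bin farthest downstream. The other promoters with a window showed the same location at a lower share, 8.89% between 75 and 51 bp upstream. Base composition differs between the sets, as given above, and its part in these shares was not tested.

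**Figure D3:**
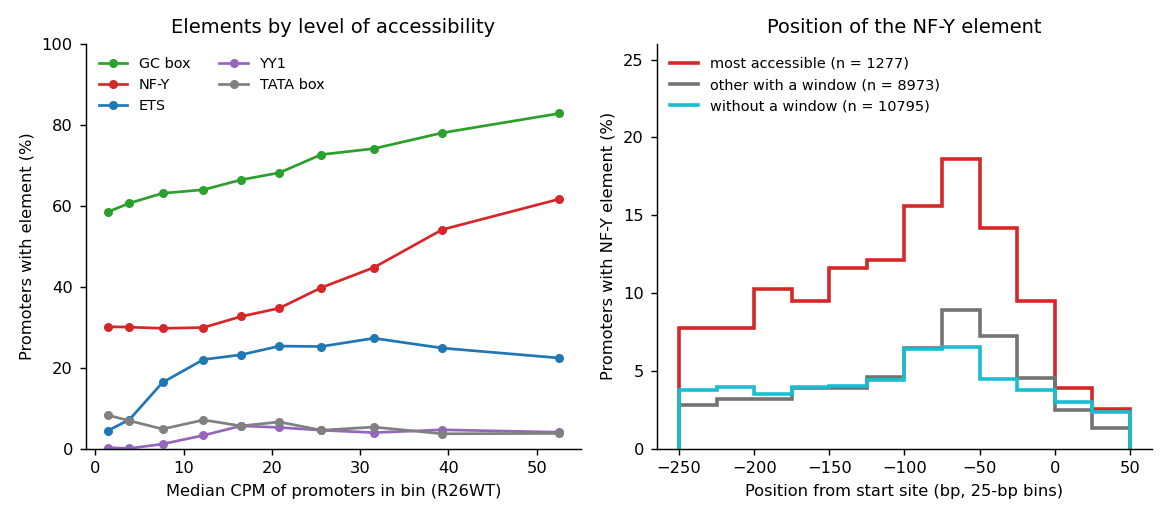
Left, share of promoters that contain an element (vertical axis, percent) against the median R26WT CPM (horizontal axis) of 10 bins of 1025 promoters each; the NF-Y line (CCAAT box) runs from 30.1% to 61.7%, the GC box line from 58.5% to 82.8%, and the ETS line reaches 27.3% in the eighth bin. Right, share of promoters with an NF-Y element (vertical axis, percent) by position from the start site (horizontal axis, 25-bp bins), for the most accessible promoters, other promoters with a window and promoters without a window, with the peak of the first at 18.6%.

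A start site of 1683 protein-coding genes lay within 1 kb of at least 1 of the 2000 windows, which is 13.6% of the 12348 genes with any window there and 7.94% of the 21188 genes with a start site used here. Of 16 heat shock genes, 8 were among them, led by Hspa8 (83.9 mean R26WT CPM), the constitutive HSC70 chaperone, Hsph1 (64.0 CPM), Hspa5 (63.9 CPM), the chaperone of the endoplasmic reticulum, and Dnaja1 (61.2 CPM). Inducible Hspa1a (20.9 CPM) and Hspa1b (26.4 CPM) were below the bound. Of 30 RNA splicing genes, 13 were among them, led by Hnrnpc (75.1 CPM), Hnrnpa3 (70.8 CPM), Hnrnpa2b1 (61.5 CPM) and Hnrnpk (59.9 CPM), which encode RNA-binding proteins of nascent transcripts. Of 27 translation factor genes, 9 were among them, led by Eif4g2 (72.3 CPM), Eif5 (61.1 CPM), Eif5a (57.5 CPM) and Ncl (57.4 CPM). Of 84 ribosomal protein genes, 21 were among them, including Rps29 (67.7 CPM), Rpl37 (63.2 CPM) and Rpl15 (55.6 CPM).

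Genes of the early response to stimulation were represented as well. Of 23, 7 were among the most accessible, namely Klf6 (82.0 CPM), Btg1 (79.9 CPM), Jun (77.4 CPM), Egr2 (60.5 CPM), Ier5 (51.9 CPM), Egr1 (49.9 CPM) and Btg2 (44.5 CPM). Klf6, Jun, Egr1 and Egr2 encode transcription factors, and Btg1 and Btg2 are antiproliferative genes associated with quiescent lymphocytes. The start-site windows of Fos (33.5 CPM), Nr4a1 (34.6 CPM), a gene induced by T cell receptor signalling, and Myc (17.9 CPM) were below the bound. These counts use start-site windows only. Farther from a start, some of the most accessible windows lay nearest to other listed genes. These included Jund (58.1 CPM, 1071 bp away), Nr4a3 (51.7 CPM, 1705 bp), Fos (50.6 CPM, 18532 bp) and Nr4a1 (46.0 CPM, 7480 bp). Tnfaip3 of the NF-κB list was another (44.3 CPM, 46887 bp). Of 13 NF-κB pathway genes, 3 were among the most accessible by start-site windows: Relb (48.2 CPM, from a window centred 806 bp from a start site), Nfkbib (47.7 CPM) and Birc3 (46.7 CPM). Of 31 proteasome genes, 3 were among them: Psma2 (61.2 CPM), Psmc6 (47.5 CPM) and Psma5 (42.6 CPM). This is 9.68% of the list, near the 7.94% of all genes with a start site.

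Lists of T cell and Treg cell genes were also examined, again by windows within 1 kb of a start site. Of 25 T cell transcription factor genes, Klf2 (62.3 CPM), which controls recirculation, and Id2 (42.8 CPM) were among the most accessible. This is 8.0% of the list, close to the 7.94% of all genes, and the median over the list of 23.6 CPM lay beside 19.2 CPM over all genes with a start-site window. Of 25 genes of T cell receptor signalling, only Fyn (44.1 CPM) was. None of 25 Treg identity genes was, and the highest of them were Entpd1, which encodes CD39 (32.9 CPM), Prdm1 (30.8 CPM) and Capg (26.02 CPM). The start-site windows of Ikzf2, Ctla4, Il2ra and Cd3e had 20.02, 15.5, 14.8 and 12.04 CPM, and that of Cd4 had 4.62 CPM. Foxp3 had no window within 1 kb of its start, and its highest window lay 3531 bp away (9.64 CPM). None of the 15 homing genes was included either, led by Ccr7 (29.8 CPM) and Cxcr4 (29.4 CPM). Within 1 kb of a start, no gene in the lists of other cell types was included. Cr2 was the highest B cell gene there (5.91 CPM) and Cebpb the highest myeloid gene (12.9 CPM). Cd8b1 was the highest CD8 and NK gene (12.1 CPM) and Col1a1 the highest non-lymphoid gene (10.47 CPM). Some of these were at the level of Cd3e or above Cd4. Farther from a start, some of the most accessible windows lay nearest to listed genes. Examples were Klrb1c of the CD8 and NK list (43.6 CPM, 14502 bp away), Cxcr4 (47.95 CPM, 22707 bp) and Cd69 of the T cell receptor list (43.8 CPM, 9184 bp). No window within 1 kb of a start was found for 6 of 10 B cell, 5 of 9 myeloid, 3 of 6 CD8 and NK and 8 of 10 non-lymphoid genes, nor for 5 of the 25 Treg identity genes (Foxp3, Tnfrsf18, Itgae, Il10 and Klrg1).

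**Figure D4:**
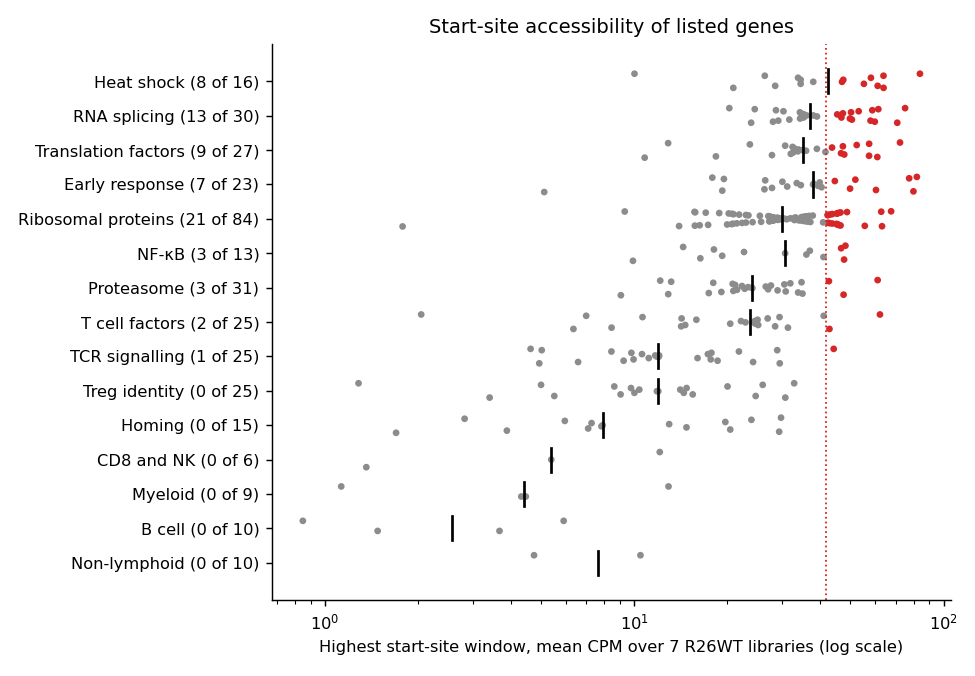
Highest window within 1 kb of a start site, as mean CPM over the 7 R26WT libraries (horizontal axis, log scale), for each gene of 15 lists (rows). Red points are genes with 1 of the 2000 windows within 1 kb of a start site, and black bars are list medians. The dotted line is the level of rank 2000, and numbers are member genes of genes with a start site. The medians go from 42.4 CPM for heat shock genes to 11.9 CPM for Treg identity genes and 2.57 CPM for B cell genes.

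Gene families, taken by their symbols, were chosen after their counts had been seen. Of 20 Hnrnp genes with a start-site window, 13 had 1 of the most accessible windows within 1 kb of a start. So did 6 of 14 Klf genes (Klf13, Klf6, Klf7, Klf2, Klf10 and Klf11) and 6 of 17 Kdm histone demethylase genes. So did 15 of 52 Rab GTPase genes and 12 of 45 Usp deubiquitinase genes. Of 28 Ube2 genes 5 did, and of 35 Ddx genes 8 did. Of 318 Zfp zinc-finger genes, 23 did (7.23%). The share over all genes with a start-site window was 13.6%. Of 57 Cd antigen genes only Cd2ap did, which encodes an adaptor and not a surface antigen, and of 39 Il genes only Il3ra did.

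The 156 windows away from coding start sites formed 129 regions. Start sites or ends of long non-coding RNA genes lay within 1 kb of 39 of them (25%), against 3.96% of the 185276 other windows away from coding starts. tRNA genes lay within 1 kb of 7 (4.49% against 0.277%), and 3 overlapping windows (54.8, 55.3 and 52.3 mean R26WT CPM) lay at Rn7s2, a gene of the 7SL RNA of the signal recognition particle. Reads of tRNA and 7SL genes can be split among near-identical copies, so these levels are uncertain. Of the 64 regions more than 10 kb from a coding start, the highest included those near Zfp958 (78.7 CPM, 64520 bp away), in Mpp7 (71.6 CPM), at the long non-coding RNA gene D130051D11Rik (64.8 CPM) and at Chaserr (64.6 CPM), a non-coding RNA gene next to Chd2. Others of the highest 10 were in Stard13 at 1700028E10Rik (64.2 CPM), at Snhg8 (63.0 CPM), which hosts the small nucleolar RNA Snora24, at Gm26901 (62.7 CPM), at Gm36445 (61.4 CPM) and near Ccne1 (60.3 CPM). Of the highest 10, 6 lay at a non-coding gene.

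The windows carried a similar share of the counts in every library. They held between 9.76% and 11.5% of the counts, with 10.8% ± 0.60 (SD, n = 4) in R26WT and 10.3% ± 0.38 (n = 4) in R26TIR1(F74G) mice on day 3 and 10.6% ± 0.68 (n = 3) and 10.4% ± 0.22 (n = 3) on day 7, and the groups overlapped. Libraries held between 5653289 and 20184487 counts, and the median of the 2000 windows was between 285 and 1028 counts per library. R26TIR1(F74G) replicate 1 of day 3 and R26WT replicate 3 of day 7 (6348754 counts) were the shallowest. The SD of log2 CPM between mice of a group had a median between 0.070 and 0.11 over the 2000 windows and between 0.19 and 0.29 over all windows, where fewer counts stand behind a value. Of the 2000 windows, 1994 varied by less than 2-fold over the 14 libraries, with a median of 1.33-fold between the highest and the lowest library.

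The same sites were the most accessible in R26TIR1(F74G) mice, whose libraries were not used to choose them. Of the 2000 windows, 1866 (93.3%) were also among the 2000 highest by mean CPM of the 7 R26TIR1(F74G) libraries, and all were among the 4000 highest. Between day 3 and day 7, 1866 of the 2000 highest were shared in R26WT mice and 1815 in R26TIR1(F74G) mice. These day values rest on means of 4 and 3 libraries and are not directly comparable with the value between genotypes. The window of the 2000 with the lowest place in the R26TIR1(F74G) libraries was at Slc3a2, the heavy chain of CD98 amino acid transporters. It had rank 1928 at 42.1 CPM in R26WT and rank 2792 at 35.8 CPM in R26TIR1(F74G) libraries.

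Whether any of these sites differed between genotypes or days was tested by the quasi-likelihood method of edgeR over all windows, and windows with a Benjamini-Hochberg adjusted p below 0.05 were called. All 2000 windows had counts high enough to be tested in every comparison. Since the windows were chosen to be high in R26WT mice, the choice favours lower values in R26TIR1(F74G) mice and touches the R26WT comparison of days, so nothing is read from directions there; day 7 against day 3 in R26TIR1(F74G) mice is free of it. Comparisons that use the same mice are not independent.

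On day 7, none of the 2000 windows passed between R26TIR1(F74G) and R26WT mice, against 11 of 237811 windows tested (0.00463%). At an unadjusted p under 0.05 by edgeR, 3 windows were higher and 17 lower (0.15% and 0.85%, against 2.75% and 3.20% of all windows), and DESeq2 gave 25 at an unadjusted p under 0.05 and 0 after adjustment. The median log2 fold change was -0.021, beside -0.0066 over all windows, and 95% of the values lay between -0.18 and 0.14. With loess offsets, which remove a trend of the fold change with the level, the median was -0.0091, and 57 windows were higher and 85 lower. Without R26WT replicate 1 the median was 0.029, and without R26WT replicate 3 it was -0.093. The 3 smallest p-values belonged to 3 overlapping windows inside Mpp7, a scaffold protein of cell junctions, 17640 to 17791 bp from its start. The first of them had 38.5, 53.6 and 39.0 CPM in R26TIR1(F74G) mice and 78.4, 53.9 and 83.5 CPM in R26WT mice. The groups overlapped at both other Mpp7 windows. At the first window they did not overlap, although the second mice of each differed by 0.3 CPM. Its log2 fold change was -0.70 with a standard error of 0.13 (edgeR adjusted p = 0.0583, DESeq2 adjusted p = 1.00). With loess offsets 2 of the Mpp7 windows passed, and without R26WT replicate 2 all 3 did.

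On day 3, 0 of the 2000 windows passed, and 0 of 235515 windows tested did (0%). Here edgeR gave 1 window higher and 369 lower at an unadjusted p under 0.05 (0.05% and 18.45%, against 3.93% and 3.62% of all windows), and DESeq2 gave 409 at an unadjusted p under 0.05 and 0 after adjustment. The median log2 fold change was -0.13 beside 0.0078 over all windows, and 1777 of the 2000 values were below 0. With loess offsets the median was 0.022, and 225 windows were higher and 114 lower at an unadjusted p under 0.05. Loess offsets remove a trend with the level, and the 2000 windows are the highest by level. A shift shared by these windows is thus largely removed in advance. Here and below, loess medians near 0 therefore cannot show whether a direction holds. Windows chosen by the R26TIR1(F74G) libraries had a median of -0.11, and those chosen by the R26WT mice of day 7 had one of -0.12. All promoter windows had a median of -0.056 and all intergenic windows one of 0.054.

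The smallest p-values on day 3 were at Rhoa, a GTPase of the cytoskeleton, Cdk11b, a kinase that acts in splicing and transcription, and Eif5a, a translation factor. The Rhoa window (chr9:108306065-108306266, 5 bp from the start site) had 35.6, 45.5, 38.8 and 40.0 CPM in R26TIR1(F74G) mice and 61.4, 46.8, 51.7 and 61.3 CPM in R26WT mice, and the groups did not overlap. Its log2 fold change was -0.51 with a standard error of 0.11 (edgeR adjusted p = 0.234), and -0.36 with loess offsets. On day 7 it had 48.2, 47.7 and 51.0 CPM in R26TIR1(F74G) mice and 51.5, 50.6 and 43.0 CPM in R26WT mice, which overlapped. The log2 fold changes on day 3 were -0.45 at Cdk11b (standard error 0.11) and -0.43 at Eif5a (standard error 0.11), both with an edgeR adjusted p of 0.389.

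When both days were fitted together with a term for day, 0 of the 2000 windows passed by edgeR, against 27 of 240778 (0.0112%), and 1 passed by DESeq2. At an unadjusted p under 0.05, edgeR gave 0 higher and 229 lower (0% and 11.45%, against 3.16% and 3.57% of all windows) and DESeq2 gave 296 in all. The median log2 fold change was -0.077 beside 0.0034 over all windows, and it was 0.012 with loess offsets, where 148 were higher and 109 lower. The window called by DESeq2 was at Srsf2, a splicing factor (chr11:116853012-116853213, 18 bp upstream of the start site). It had 30.6, 34.9, 29.0 and 41.1 CPM on day 3 and 39.7, 35.1 and 42.5 CPM on day 7 in R26TIR1(F74G) mice, and 47.1, 39.8, 40.6 and 50.2 CPM on day 3 and 46.6, 48.96 and 43.9 CPM on day 7 in R26WT mice. The genotypes did not overlap on day 7 and overlapped on day 3. Its log2 fold change was -0.35 with a standard error of 0.088 (edgeR adjusted p = 0.263, DESeq2 adjusted p = 0.0337). Both remaining windows of the 3 were at Bsdc1, with -0.31 and -0.28 (edgeR adjusted p = 0.383 and 0.421).

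Between day 7 and day 3 in R26TIR1(F74G) mice, the comparison that the choice of windows does not touch, 0 of the 2000 windows passed, and 0 of 239163 did (0%). By edgeR, 175 were higher and 12 lower on day 7 at an unadjusted p under 0.05 (8.75% and 0.60%, against 2.91% and 4.05% of all windows), and DESeq2 gave 172 at an unadjusted p under 0.05 and 0 after adjustment. The median log2 fold change was 0.067 beside -0.013 over all windows, and the median of all promoter windows was 0.060. With loess offsets the median was -0.025, and 82 were higher and 202 lower. The direction thus differed between the scalings, but loess offsets largely remove a shift shared by the highest windows. This difference therefore does not show whether the direction holds. The 3 smallest p-values belonged to Gm13287, Plcl2 and the Mpp7 window, all lower on day 7. The Gm13287 window (chr4:88803071-88803272) had 29.7, 33.2 and 32.5 CPM on day 7 and 94.3, 37.3, 34.6 and 42.3 CPM on day 3, with a log2 fold change of -0.64 and a standard error of 0.18 (edgeR adjusted p = 0.328). Replicate 1 of day 3 was more than 2-fold above the others, and without it the log2 fold change was -0.21. At Plcl2 the value went from -0.59 to -0.30 without this replicate, and at Mpp7 from -0.68 to -0.19.

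Between day 7 and day 3 in R26WT mice, 0 of the 2000 windows passed, against 7 of 232991 (0.003%). By edgeR, 0 were higher and 5 lower at an unadjusted p under 0.05 (0% and 0.25%, against 2.60% and 2.65% of all windows), and DESeq2 gave 8 and 0 after adjustment. The median log2 fold change was -0.045 beside 0.00075 over all windows. With loess offsets it was 0.0010, and 36 were higher and 26 lower, and without R26WT replicate 3 of day 7 it was 0.033 with TMM scaling. The smallest p-values were in a window nearest to Ccdc54 (log2 fold change -0.33, standard error 0.14) and at Swt1 (-0.30, standard error 0.13) and Ensa (-0.28, standard error 0.13), with edgeR adjusted p of 0.923, 0.927 and 0.940. The Swt1 window had 41.2, 41.3 and 34.5 CPM on day 7 and 44.9, 44.2, 51.1 and 50.3 CPM on day 3, and the groups did not overlap.

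The interaction, which is the genotype difference on day 7 minus that on day 3, gave 0 of the 2000 windows and 0 of 240778 (0%). By edgeR, 72 were above 0 and 6 below at an unadjusted p under 0.05 (3.60% and 0.30%, against 2.75% and 3.57% of all windows), and DESeq2 gave 121 and 0 after adjustment. The median was 0.12 beside -0.013 over all windows, and -0.026 with loess offsets, where 45 were above 0 and 158 below. The smallest p-values were again at Gm13287 (-0.93, standard error 0.27), Plcl2 (-0.77, standard error 0.23) and Mpp7 (-0.91, standard error 0.27), each with an edgeR adjusted p of 0.596. Without R26TIR1(F74G) replicate 1 of day 3 these values were -0.49, -0.48 and -0.41.

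Among the 2000, no start-site window of a listed gene passed the threshold by edgeR at a minimum mean count of 10 in any of the 6 comparisons. Other windows of listed genes were not examined in the comparisons. Over both days Srsf2, in the RNA splicing list, passed by DESeq2 and by edgeR at a minimum mean count of 50. On day 7 the median log2 fold change between genotypes was 0.093 for the 8 heat shock genes, -0.014 for the 7 early response genes, -0.020 for the 13 RNA splicing genes, -0.072 for the 9 translation factor genes and -0.044 for the 21 ribosomal protein genes. On day 3 the same groups had medians of -0.17, -0.094, -0.15, -0.20 and -0.14, beside -0.13 for all 2000 windows.

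**Figure D5:**
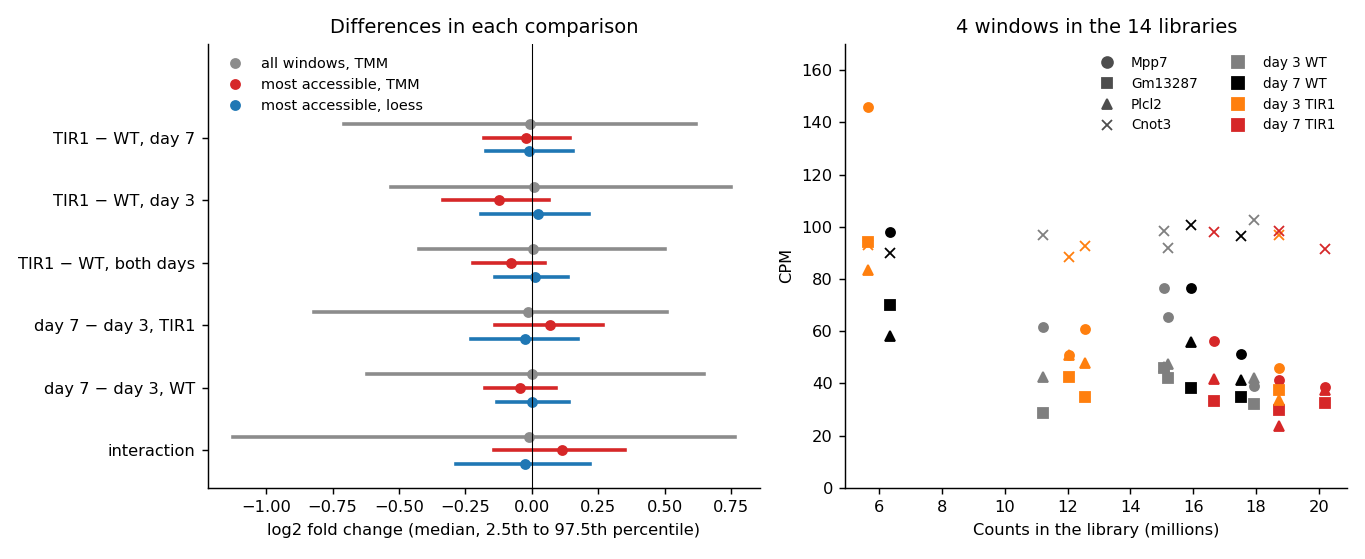
Left, median (point) and range of the middle 95% of values (line) of the log2 fold change (horizontal axis) in the 6 comparisons for all windows tested and for the 2000 most accessible windows with TMM scaling, and for the latter with loess offsets; TIR1 stands for R26TIR1(F74G) and WT for R26WT. Right, CPM (vertical axis) of 4 windows in the 14 libraries against the counts in each library (horizontal axis, in units of 1000000); Cnot3 stays near 95 CPM, whereas Mpp7, Gm13287 and Plcl2 are highest in the 2 shallowest libraries.

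A small number of windows varied far more between mice than the rest. Over the 14 libraries the SD of log2 CPM was above 0.4 in 6 of the 2000 windows, whose lowest was 0.41, and the next window had 0.28, beside a median of 0.12. The 6 were the 3 Mpp7 windows, those of Gm13287 and Gm13285, neighbouring genes on chromosome 4, and the Plcl2 window. In each of them the highest library was R26TIR1(F74G) replicate 1 of day 3 and the second R26WT replicate 3 of day 7, which were also the shallowest libraries. At the first Mpp7 window by this spread these libraries had 146 and 98.1 CPM, and the median over the 14 was 58.4 CPM. The windows were chosen after their spread had been seen, and the part of depth in it was not tested.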

How the data were processed

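Before deposit the authors used Bowtie2 for alignment and MACS2 for peaks, and featureCounts gave the reads at summits of peaks shared by replicates. The deposited values are raw counts per window and library, on mm10 per the labels. The 14 columns were matched to samples by mouse name, and 0 other columns were present. Handling of duplicates and of the transposase offset lies within the counts and is not given in the sources used here.

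Each window was assigned to the nearest of 31863 start sites of 21188 protein-coding genes (RefSeq, GRCm38.p6), where strand came from the RefSeq promoter table for 17274 genes and from GENCODE by symbol for the rest. Window positions are printed as deposited. CPM divides by the library total. Counts were tested with edgeR 4.0.16 (TMM, quasi-likelihood, mean count of at least 10 in the libraries compared, Benjamini-Hochberg adjustment) under R 4.3.3. Comparisons were between genotypes on each day and over both days, between days in each genotype, and the interaction. Alternatives used DESeq2 1.42.0, other scalings, filters, thresholds and choices of windows, each mouse left out, the replicate number as a block and the prefix of the mouse name as a term. Loess offsets came from limma 3.58.1. The test was tested on simulated data with the same dispersion in every window and no library that stood apart. Windows with a single high library, such as that of Gm13287, were therefore not covered.

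Windows, gene lists and elements were chosen with earlier results of these data known. Named windows are the 10 highest regions, the 10 around the bound, the 10 highest regions over 10 kb from a coding start, up to 4 genes per list, marker genes, and for each comparison the 3 windows with the smallest p. Other named genes were chosen after their values were seen. Some items that the rule names are not reported here. Each library is 1 mouse, so p-values rest on the spread between mice. In edgeR this spread is moderated toward that of other windows, and the standard errors come from the same test. At windows that vary more than most they can therefore understate the spread between mice. At the first Mpp7 window on day 7 the unadjusted p was 3.43e-06 by edgeR and 0.00219 by DESeq2. Reads carried no molecular identifiers, so counts are not independent molecules.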

Additional observations from a re-analysis of the deposited data

Results flagged for a closer look

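Single values that stood apart from the other 3 mice of a day 3 group, by a gap above Dixon's critical value, were looked for. Over 37 items and 74 groups chance flags about 3.7, and 8 were found. Windows named for a small p-value were chosen with the values of these mice, so the chance number does not apply to them. In R26TIR1(F74G) replicate 1 of day 3 the 3 Mpp7 windows had 139, 153 and 146 CPM, where the other mice had 46.6 to 60.1, 50.4 to 67.7 and 45.9 to 60.7 CPM. The Gm13287 window had 94.3 CPM in this library and 34.6 to 42.3 CPM in the others, and the Ube2d3 window had 90.0 CPM against 85.3 to 85.9 CPM. R26TIR1(F74G) replicate 2 of day 3 had 29.8 CPM in the window nearest to Ccdc54, against 47.3 to 50.6 CPM. R26WT replicate 4 of day 3 had 93.3 CPM at Pja2, against 87.6 to 88.5 CPM. R26TIR1(F74G) replicate 3 of day 3 had 19.8 CPM in the highest Cd4 window, which is not among the 2000, against 14.8 to 15.3 CPM. The Mpp7 windows overlap each other and are not independent. R26TIR1(F74G) replicate 1 of day 3 was the library with the fewest counts (5653289), and its part in these values was not tested.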

How the results depend on the processing

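On day 7, 2 of the 2000 windows passed between genotypes with library totals, 2 with loess offsets, 3 with a minimum mean count of 50, 4 with the replicate block and loess offsets and 2 at a threshold of 0.1, where 0 passed in the reported fit. Up to 3 passed with 1 mouse left out (range 0 to 3), namely 2 without R26TIR1(F74G) replicate 2, 3 without R26WT replicate 2 and 1 without R26WT replicate 3. All of these were Mpp7 windows, except for the Plcl2 window with the block and loess offsets. Over both days 1 window passed with DESeq2 and 1 with a minimum mean count of 50, in both cases at Srsf2. Between days in R26TIR1(F74G) mice 4 windows passed without replicate 2 of day 3 (range 0 to 4), the 3 of Mpp7 and that of Plcl2. The day 3 median of -0.13 became 0.022 with loess offsets and 0.022 with the block and loess offsets. The interaction median of 0.12 became -0.026 with loess offsets, -0.025 with the block and loess offsets and -0.00022 with a minimum mean count of 50. Leaving out 1 mouse gave medians from -0.17 to -0.066 on day 3, -0.093 to 0.029 on day 7, -0.11 to -0.044 over both days, 0.027 to 0.10 between days in R26TIR1(F74G) mice, -0.087 to 0.033 in R26WT mice and 0.037 to 0.16 for the interaction. The share of counts in the windows was 6.02% for 1000 windows and 17.6% for 4000.

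Deviations of same-numbered mice of the 2 genotypes from their group means correlated between -0.039 and 0.062 over all windows. No pairing by replicate number was seen, but most windows hold few counts, so a weak one could be missed. The replicate block alone left 0 windows called in all 6 comparisons and gave a day 7 median of -0.012 and a day 3 median of -0.12. The share within 1 kb of a start site stayed between 88.3% (within 500 bp) and 94.3% (within 2 kb). The precision of these comparisons includes both depth and the spread between mice, which were not separated. The median standard error on day 7 was 0.11 for the 2000 windows and 0.29 for all windows.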
